A study of Mus musculus with 16 samples.

Results

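Bcl6, the transcriptional repressor B cell lymphoma 6, was described together with the corepressor genes Bcor, Bcorl1 and Ncor1 in bulk RNA-seq libraries of the mouse dorsal hippocampus. The 4 members were taken by symbol from the 24972 genes of the deposited tables, and all 4 were found in every library and passed the filter on low values in each comparison. The set was chosen by the training comparison itself, in which Bcl6 had stood out, so the training differences of the members are given as a description without a test. Adult ArcCreERT2::eYFPflx mice on a C57BL/6 background, aged 3 to 4 months, carried an Arc-driven inducible Cre and a floxed eYFP reporter in both groups. Trained mice (3 animals, 9 libraries) learned to avoid a shock zone on a rotating arena in the active place avoidance (APA) task. Untrained mice (3 animals, 7 libraries) explored the same rotating arena with the shock off, and all animals were given a retention test before tissue was collected. The CA1, CA3 and DG subregions were microdissected, and the pieces of 1 animal were pooled by subregion, which gave 3 trained libraries per subregion and 3 untrained libraries in CA1, 2 in CA3 and 2 in DG.

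BCL6 binds DNA through zinc fingers and recruits corepressors through its amino-terminal BTB domain. NCOR1 brings the histone deacetylase HDAC3 to that domain, whereas BCOR brings a variant Polycomb complex that ubiquitinates histone H2A, and BCORL1 is the BCOR-like relative that takes part in the same kind of complex. BCL6 is best known from germinal centre B cells, and in the developing cortex it drives neuronal differentiation by repressing Notch targets. The gene is controlled by STAT and FOXO factors in lymphoid cells, and BCL6 and STAT proteins recognise similar DNA letters.

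The sequence upstream of Bcl6 is shown because Bcl6 is the member with the largest training difference and because its known regulators have recognisable target letters. RefSeq (GRCm38.p6) places starts of Bcl6 transcripts at 2 sites on the minus strand of chromosome 16, and the 250 bases before each are printed below, 5′ to 3′, with capitals marking the motifs searched. The upstream start is preceded by chr16:23988853-23989102, and the internal start by chr16:23981284-23981533, which lies within the gene and in none of its GENCODE exons.
Bcl6 upstream start: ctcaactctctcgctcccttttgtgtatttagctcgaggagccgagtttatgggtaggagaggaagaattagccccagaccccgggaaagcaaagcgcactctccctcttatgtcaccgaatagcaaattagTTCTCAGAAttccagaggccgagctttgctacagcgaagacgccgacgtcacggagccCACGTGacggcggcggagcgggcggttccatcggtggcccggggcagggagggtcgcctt
Bcl6 internal start: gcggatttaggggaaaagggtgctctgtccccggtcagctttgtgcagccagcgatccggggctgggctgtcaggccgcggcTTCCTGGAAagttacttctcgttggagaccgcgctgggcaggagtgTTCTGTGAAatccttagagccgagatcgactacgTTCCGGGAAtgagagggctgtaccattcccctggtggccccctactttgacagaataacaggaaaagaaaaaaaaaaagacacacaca
The 4 motifs named here were searched on both strands in windows of 300 bases, from 250 bases before to 50 after each start. The letters TTCNNNGAA, shared by STAT and BCL6 sites, occurred 3 times before the internal start (TTCCTGGAA, TTCTGTGAA and TTCCGGGAA) and once before the upstream start (TTCTCAGAA), and 8.3% of the 32851 windows of the mouse table held them. The E-box CACGTG occurred once before the upstream start and once in the Bcorl1 window, against 7.15% of all windows. The cAMP response element TGACGTCA (1.79% of windows) and the forkhead motif TGTTTAC (3.65%) had no match in the windows of the 4 members. TTCNNNGAA also matched in the overlapping pair of Bcor windows (TTCGGAGAA) and just after an internal start of Ncor1 (TTCCTAGAA). The other Ncor1 window, which also lies within the GENCODE gene and has a GC content of 72.3%, held no match. A match describes letters only and was not tested as a binding site.

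Before the members are compared, some properties of the libraries bear on them. The values are normalized estimated counts that summed to 7607326 to 7984931 per library, so the sequencing depth is unknown. Between 7567 and 9758 genes were listed at 0 in 7 libraries (all trained CA1, trained CA3 replicates 1 and 2, both untrained DG) and between 3124 and 5944 in the other 9. The X-linked transcript Xist lay between 7601 and 19592 in trained libraries and between 25.5 and 52.4 in 6 of 7 untrained libraries. Untrained CA3 replicate 1 had an Xist value of 10587, which goes against the low Xist in CA1 and DG of the animal with the same label. The study's methods state that 2 females and 1 male were trained and that 1 female and 2 males were untrained, so high Xist in all 9 trained libraries goes against the stated sexes as well. So does low Xist in the untrained CA1 libraries, which come from each of the 3 untrained animals. The Y-linked Ddx3y lay between 448 and 553 in the 6 untrained libraries with low Xist and at 201 in untrained CA3 replicate 1. It lay between 92.9 and 255 in the libraries of trained animal 3 and between 1.66 and 70.9 in the other 6 trained libraries. High Xist thus stood beside Ddx3y in untrained CA3 replicate 1, in trained animal 3 and, with Ddx3y at 70.9, in trained CA1 replicate 1. The source of these values was not tested. Training and the sex-linked transcripts therefore cannot be told apart in most libraries. The subregion labels were only partly borne out by markers. The dentate granule marker Prox1 averaged 3536 ± 271 (SD, n = 6) in libraries labelled CA1, 3648 ± 869 (n = 5) in CA3 and 3665 ± 445 (n = 5) in DG, and none of the 5 dentate markers passed the test between any pair of subregions. The CA1 marker Wfs1 averaged 865 ± 429 in CA1, against 318 ± 66.7 in CA3 and 444 ± 110.0 in DG. Wfs1 passed between CA1 and CA3 (limma adjusted p = 0.0382) and not between CA1 and DG (limma adjusted p = 0.0891). Of the 3 CA3 markers, 1, Cpne4, was lower in CA1 than in CA3 (limma adjusted p = 0.00147) and DG (limma adjusted p = 0.00699). Cpne4 did not pass between CA3 and DG (limma adjusted p = 0.844). Subregions are therefore named below by their labels.

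Ncor1 was the most abundant member and Bcor the least. Divided by the longest protein-coding transcript (GENCODE M21, GRCm38), Ncor1 had a level of 404 ± 23.4 per kb (SD over 16 libraries), Bcl6 192 ± 40.1, Bcorl1 45.3 ± 3.71 and Bcor 39.6 ± 4.37. The per-kb ranges of Bcorl1 and Bcor overlapped between libraries. Within each library, before division by length, Bcor was the lower of the pair, at 0.656 to 0.926 times Bcorl1. Ncor1 lies on chromosome 11 from 62316426 to 62458541 on the minus strand and its longest coding transcript has 46 exons. Bcl6 lies on chromosome 16 from 23965052 to 23988852 on the minus strand with 10 exons. Bcor (12036740 to 12160355, minus strand) and Bcorl1 (48341358 to 48408049, plus strand) are both on the X chromosome. In values not divided by length, Ncor1 was above 98.8% of all genes and Bcor above 77.6%. Bcl6 was the most variable of the 4, with a highest value 2.04 times its lowest, against 1.43 for Bcor, 1.31 for Bcorl1 and 1.26 for Ncor1.

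**Figure D1:**
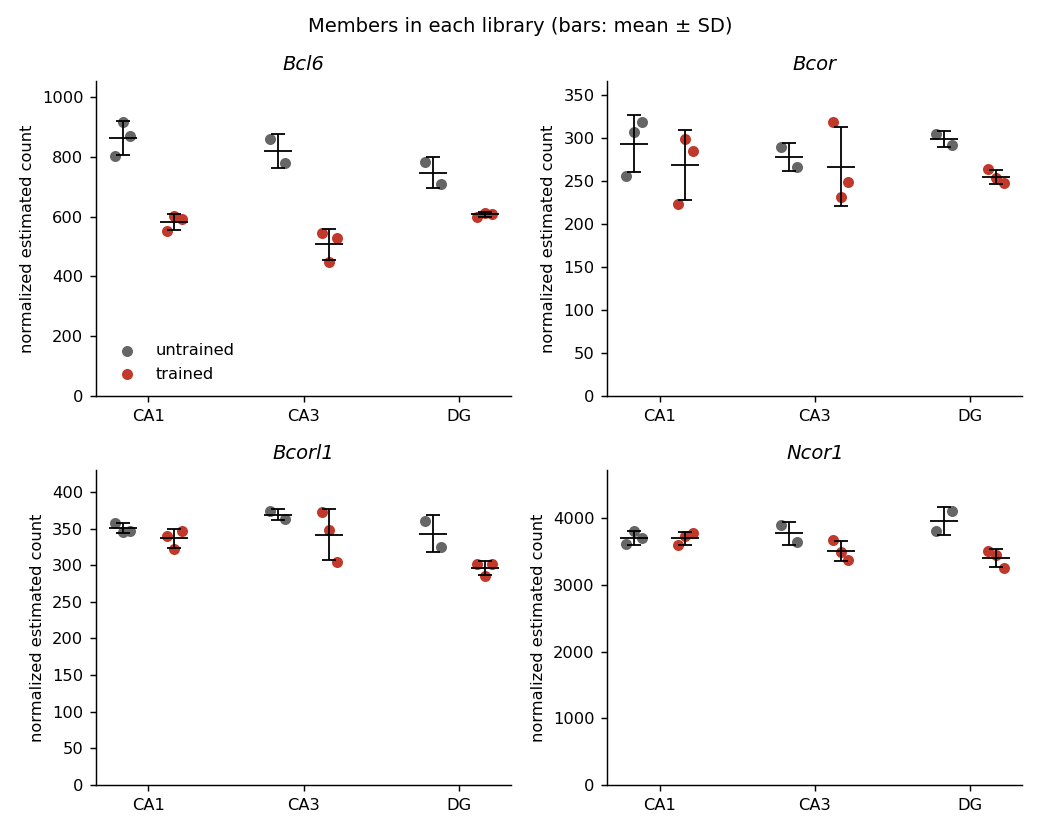
Normalized estimated counts (y axis, from 0) of Bcl6, Bcor, Bcorl1 and Ncor1 in each of the 16 libraries, by labelled subregion (x axis) and training (colour), with the mean and SD of each group as black bars. Bcl6 lies between 448 and 613 in trained and between 709 and 915 in untrained libraries, while the corepressors overlap between the groups in CA1 and CA3. How many other genes separate over all libraries was not counted.

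Bcl6 was lower in trained than in untrained libraries in each subregion. In CA1, its value was 804, 915 and 869 in untrained replicates 1 to 3 and 552, 603 and 591 in trained replicates 1 to 3. In CA3, it was 859 and 779 in untrained replicates 1 and 2 and 545, 448 and 529 in trained replicates 1 to 3. In DG, it was 782 and 709 in untrained replicates 1 and 3 and 598, 613 and 609 in trained replicates 1 to 3. The lowest untrained library of any subregion, DG replicate 3, was above the highest trained library, DG replicate 2. Bcl6 was chosen by this comparison, and how many other genes separate over all libraries was not counted. The group means were 863 ± 56.0 and 582 ± 26.9 (SD, n = 3 and 3) in CA1, 819 ± 56.7 and 507 ± 51.7 (n = 2 and 3) in CA3, and 746 ± 52.0 and 607 ± 7.73 (n = 2 and 3) in DG, for untrained and trained libraries respectively. On the log2(value + 2) scale the difference, trained minus untrained, was -0.57 (standard error 0.0733) in CA1, -0.69 (0.1) in CA3, -0.29 (0.0828) in DG and -0.52 (0.0582) over all libraries. The trained level was thus 0.676 times the untrained level in CA1, 0.619 times in CA3, 0.815 times in DG and 0.697 times over all subregions. In bulk tissue, fewer cells that express a gene and less RNA per cell cannot be told apart.

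**Figure D2:**
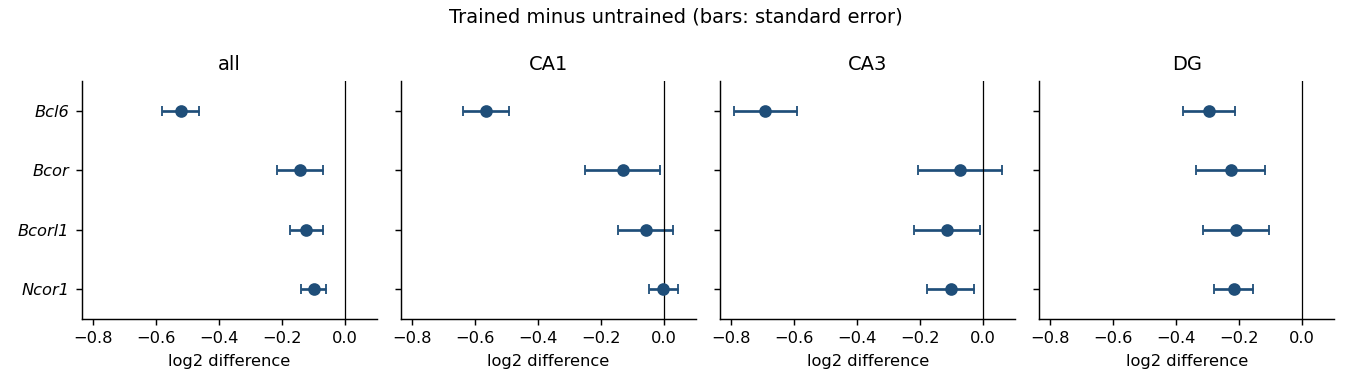
Log2 difference, trained minus untrained (x axis), of the 4 members over all subregions and in CA1, CA3 and DG, with the standard error as bars. Bcl6 lies left of 0 in all panels, from -0.69 in CA3 to -0.29 in DG, and the 3 corepressors lie between -0.23 and -0.0016.

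No test of the training differences of the 4 members is given, because that comparison chose them. As background, an adjusted p under 0.05 between trained and untrained libraries (limma) was reached by 10.3% of the 14670 genes tested over all subregions, 5.23% of 13585 in CA1, 0.852% of 13845 in CA3 and 3.4% of 13932 in DG. Every trained library lay below every untrained one for 11.1% of genes in CA1, 16.7% in CA3 and 18.2% in DG, and in each of the 3 subregions for 1.41% of the 13395 genes tested in all of them. Nothing is read from these shares about the members.

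Bcor, the Polycomb-linked corepressor, overlapped between trained and untrained libraries in CA1 and CA3. It ranged from 256 to 318 in untrained and from 223 to 299 in trained CA1, and from 267 to 289 in untrained and from 232 to 318 in trained CA3. In DG, it was 305 and 292 in untrained replicates 1 and 3 and 263, 253 and 248 in trained replicates 1 to 3. The DG libraries were the ones in which Bcor did not overlap. Its log2 difference, trained minus untrained, was -0.13 (standard error 0.119) in CA1, -0.07 (0.134) in CA3 and -0.23 (0.109) in DG.

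Bcorl1, the BCOR-like gene, also overlapped between the groups in CA1 and CA3. It ranged from 345 to 358 in untrained and from 323 to 347 in trained CA1, and from 363 to 374 in untrained and from 304 to 373 in trained CA3. In DG, it was 361 and 325 in untrained replicates 1 and 3 and 301, 285 and 302 in trained replicates 1 to 3, again without overlap. The log2 difference was -0.06 (standard error 0.0868) in CA1, -0.11 (0.103) in CA3 and -0.21 (0.106) in DG. Leaving out 1 animal gave a range from -0.081 to -0.028 in CA1 (nearest 0 without trained animal 2) and from -0.18 to -0.033 in CA3 (nearest 0 without trained animal 3).

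Ncor1, the scaffold of the HDAC3 corepressor complex, varied least. Its means were 3706 ± 103 in untrained and 3702 ± 96.6 in trained CA1 (SD, n = 3 and 3), a log2 difference of -0.0016 (standard error 0.0465). In CA3, it was 3899 and 3650.0 in untrained replicates 1 and 2 and 3676, 3494 and 3376 in trained replicates 1 to 3, with a log2 difference of -0.10 (0.0742). In DG, it was 3807 and 4112 in untrained replicates 1 and 3 and 3502, 3457 and 3257 in trained replicates 1 to 3, with a log2 difference of -0.22 (0.0615). The 3 trained DG libraries lay below the 2 untrained ones for each of the 4 members, with log2 differences between -0.21 and -0.29, beside 18.2% of all genes tested in DG. Without overlap was Bcl6 in CA1, beside 11.1% of genes, and in CA3, beside 16.7%, and no difference between subregions is read from these counts.

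The level of Bcl6 relative to its corepressors was compared within each library, where scaling between libraries plays no part. Bcl6 was chosen by its training difference, so its ratios carry that choice and are a description only. How many other genes have ratios that separate the groups was not counted. The ratio of Bcl6 to Ncor1 was 0.233 ± 0.00888 in untrained and 0.157 ± 0.00425 in trained CA1 (SD, n = 3 and 3) and 0.217 ± 0.00493 and 0.144 ± 0.0145 (n = 2 and 3) in CA3. In DG, the ratio was 0.172 and 0.206 at its untrained extremes and 0.171 to 0.187 in trained libraries, which overlapped. The ratio of Bcl6 to Bcor likewise separated the groups in CA1 (2.73 to 3.14 untrained, 2.02 to 2.48 trained) and CA3 (2.92 to 2.97 and 1.71 to 2.13) and overlapped in DG (2.43 to 2.57 and 2.27 to 2.46). The ratio of Bcor to Bcorl1 overlapped between the groups in all 3 subregions, from 0.656 to 0.926.

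Other measures moved with training beside Bcl6. The number of genes at 0 was 8323 to 9758 in trained and 3124 to 5425 in untrained CA1, and 3479 to 5944 in trained and 7567 to 8636 in untrained DG, so in both subregions it separated the same libraries as training and cannot be told apart from it. With that number as a covariate, the log2 difference of Bcl6 was -0.49 (standard error 0.0554) over all subregions, -0.38 (0.21) in CA1 and -0.19 (0.183) in DG. With a score of sex-linked transcripts as a covariate it was -0.68 (0.137) over all subregions, -0.99 (0.423) in CA1 and -0.25 (0.247) in DG. The DG values with either covariate were about as large as their standard errors. In untrained CA3 replicate 1, the library with high Xist, Bcl6 was 859, within the untrained range. The X-linked Bcor and Bcorl1 were 289 and 374 in that library, and Bcorl1 had its highest value of any library there.

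**Figure D3:**
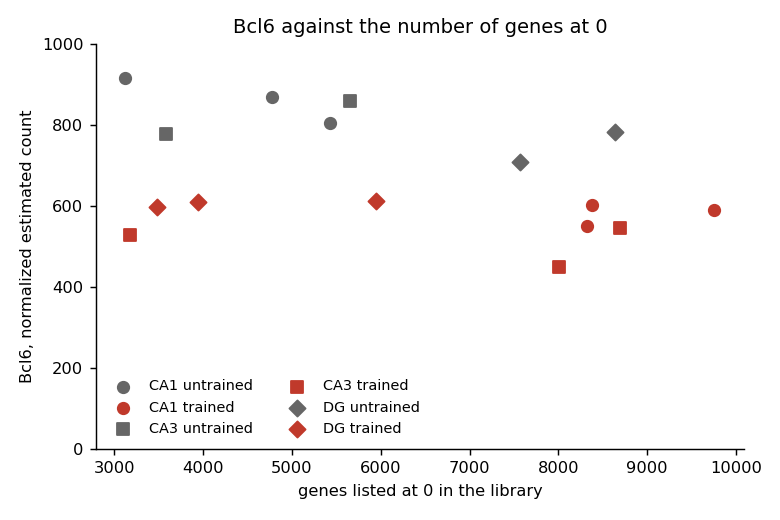
Bcl6 as a normalized estimated count (y axis, from 0) against the number of genes listed at 0 in each library (x axis), with training as colour and labelled subregion as symbol. Trained CA1 libraries lie to the right of untrained ones, from 8323 to 9758 genes at 0, and trained DG libraries to the left, from 3479 to 5944.

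Cell type markers also moved. The summed value of 5 CA1 pyramidal markers was 1378 to 1762 in trained and 2676 to 4199 in untrained CA1, and 2 of the 5 were lower by limma there. In CA3 and DG that sum overlapped (856 to 1355 trained against 880 to 1130 untrained in CA3, 1108 to 1649 against 1331 to 1388 in DG). The sum of 4 leptomeningeal markers was 1004 to 1224 in trained and 1970 to 2133 in untrained CA1, 982 to 1712 and 2088 to 2355 in CA3, and overlapping in DG (1543 to 1725 and 1373 to 1687), and 1 of the 4 was lower over all subregions. The sum of 5 astrocyte markers was 9548 to 9908 in trained and 10282 to 10705 in untrained CA1, 8688 to 9640 and 9862 to 10891 in CA3, and overlapping in DG, and 2 of the 5 were lower over all subregions. No marker of these 3 lists was at 0 in a library.

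Sums of other marker lists also separated trained from untrained libraries in single subregions. In DG, the sum of 5 dentate granule markers was 7200 to 7663 in trained and 8790 to 9252 in untrained libraries, and 1 of the 5 was lower by limma. The DG sum of 4 endothelial markers was 313 to 351 in trained and 521 to 613 in untrained libraries, again with 1 of 4 lower. The DG libraries also separated by the sums of CA3 pyramidal markers (1235 to 1323 trained, 1379 to 1574 untrained) and oligodendrocyte markers (11951 to 13107 and 13776 to 17254), which were lower in trained libraries, and of interneuron markers (3539 to 3713 and 3186 to 3457), which were higher, with no single marker of the 3 lists passing. In CA3, the sum of 5 choroid plexus markers was 236 to 317 in trained and 809 to 1120 in untrained libraries, and 2 of the 5 were lower. Choroid plexus markers were the ones at 0 in some libraries, 1 marker in trained CA1 and 2 in untrained DG. In CA1, trained libraries were higher in the sums of CA3 pyramidal markers (1241 to 1294 against 933 to 1059) and endothelial markers (607 to 677 against 579 to 603), with 1 of the 3 CA3 pyramidal markers higher and 1 lower. The part of these cell types in the differences of the 4 members was not tested.

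The level of the members between subregions was not used in their choice and was tested in a fit of the 6 groups, averaged over training. None of the 4 members passed an adjusted p of 0.05 (limma), where 4.05% of 14670 genes did between CA1 and DG, 0.988% between CA1 and CA3 and 0.00682% between CA3 and DG. Unadjusted p-values under 0.05 were found for 0, 1 and 1 members, beside 2870, 1496 and 1007 genes, in these comparisons. Bcl6 was 0.14 higher in CA1 than in CA3 on the log2 scale (95% interval 0.02 to 0.26, limma adjusted p = 0.397), and between 0.081 (without untrained animal 2) and 0.20 with 1 animal left out. Its difference between CA1 and DG was 0.07 (-0.05 to 0.20, adjusted p = 0.539) and between CA3 and DG -0.06 (-0.19 to 0.07, adjusted p = 0.881). Bcorl1 was 0.15 higher in CA3 than in DG (0.01 to 0.29, limma adjusted p = 0.694). Ncor1 had the narrowest intervals, from -0.10 to 0.11 over the 3 pairs, and Bcor had intervals from -0.22 to 0.23. The test leaves room for subregion differences of that size, and the labelled subregions shared dentate markers as given above.

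**Figure D4:**
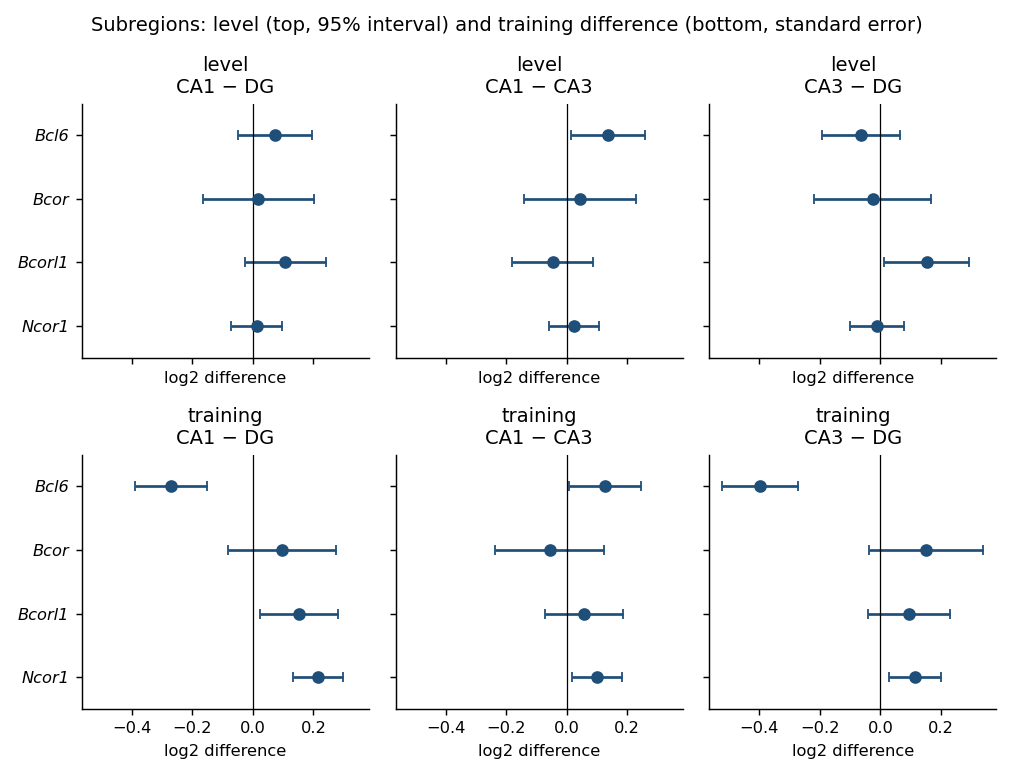
Log2 differences between labelled subregions in level (top) and in the training difference (bottom) for the 4 members (x axis), with 95% intervals at the top and standard errors at the bottom. The Bcl6 training difference lies left of 0 against DG, at -0.27 for CA1 and -0.40 for CA3, and no difference in level passed the adjusted threshold.

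The training differences of the members were also set side by side between subregions, as a description without a test, since the training comparison chose the members. The Bcl6 difference was more negative in CA3 and CA1 than in DG, with CA3 minus DG at -0.40 on the log2 scale (standard error 0.125) and CA1 minus DG at -0.27 (0.119), while CA1 minus CA3 was 0.13 (0.119). Leaving out 1 animal moved the Bcl6 value of CA1 minus CA3 between 0.0057 (without untrained animal 1) and 0.24 (without untrained animal 2). Fitted with the number of genes at 0, the Bcl6 values were -0.37 (0.163) for CA3 minus DG, -0.23 (0.189) for CA1 minus DG and 0.14 (0.127) for CA1 minus CA3. Ncor1 had positive values in all 3 pairs, with CA1 minus DG at 0.22 (0.0817), CA1 minus CA3 at 0.10 (0.0817) and CA3 minus DG at 0.11 (0.0861). With the number of genes at 0 as a covariate these became 0.12 (0.125), 0.072 (0.0836) and 0.047 (0.107), and without untrained animal 1 CA1 minus CA3 was 0.034. For Bcor and Bcorl1 the 6 values lay between -0.056 and 0.15, beside standard errors of 0.13 to 0.188. As background, an interaction of training and subregion reached an adjusted p under 0.05 (limma) for 2.75% of genes between CA1 and DG, 0.0273% between CA1 and CA3 and 0.13% between CA3 and DG. Nothing is read from these shares about the 4 genes.

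Genes around BCL6 were followed in 7 lists holding 77 symbols, of which 74 were tested over all subregions. Of these 74 genes, 5 were higher and 4 lower in trained libraries (limma adjusted p under 0.05), with a median log2 difference of 0.02 beside -0.0092 over all genes, so the share passing was close to the 10.3% of all genes. In CA1, 4 of 72 were higher and 0 lower (median 0.05, all genes 0.00031), beside 5.23% of all genes in either direction, and 16 of the 72 had an unadjusted p under 0.05, beside 18.9% of all genes. In CA3, 0 of 74 passed by limma, beside 0.852% of all genes, and 16 had an unadjusted p under 0.05, beside 15.8% of all genes. In DG 1 of 73 was higher and 1 lower, beside 3.4% of all genes. Adding the sex-linked score to the fit left none of the 9 genes past the threshold over all subregions (limma adjusted p from 0.0784 to 0.999). With it, the log2 difference grew in size for Socs2 (1.28), Mef2c (-0.48), Notch2 (-0.32) and Ccnd2 (0.31). It shrank for Bcl2l1 (0.19), Hdac5 (0.17), Ctbp1 (0.15), Id2 (-0.16) and Rybp (-0.0006). Standard errors rose for each gene, for Bcl2l1 from 0.054 to 0.132. When each animal was left out in turn, Hdac5, Ctbp1 and Socs2 passed every time, Ccnd2 was lost without trained animal 2 and Mef2c without untrained animal 1, and Bcl2l1, Id2, Notch2 and Rybp were each lost without at least 3 different animals.

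**Figure D5:**
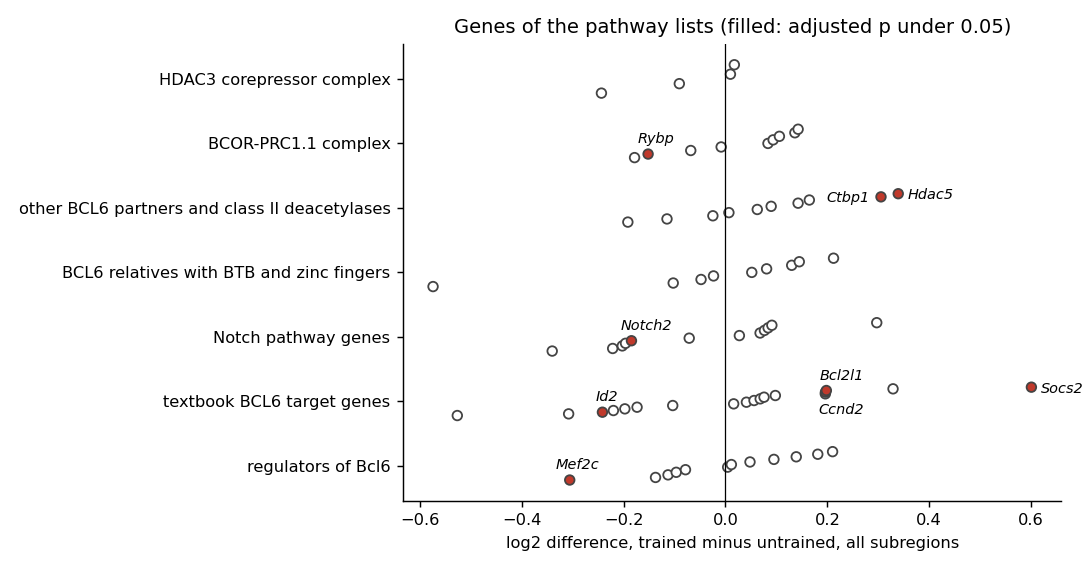
Log2 difference, trained minus untrained over all subregions (x axis), of each tested gene of the 7 lists (rows), filled and named where the limma adjusted p was under 0.05. Filled points are 5 higher and 4 lower genes, with Socs2 at 0.60 and Mef2c at -0.31 farthest to either side.

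In the HDAC3 corepressor complex list, none of the 4 genes passed in any training comparison by limma, and 1 had an unadjusted p under 0.05, in DG. Tbl1xr1, a WD40 subunit of the complex, was 1536 ± 66.7 (SD, n = 7) in untrained and 1547 ± 82.9 (n = 9) in trained libraries, a log2 difference of 0.02 (95% interval -0.06 to 0.10, limma adjusted p = 0.826). Hdac3, its deacetylase, was 359 ± 23.1 and 363 ± 32.0, a log2 difference of 0.0098 (-0.11 to 0.13, limma adjusted p = 0.939).

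In the BCOR-PRC1.1 list, Rybp, a subunit of the variant Polycomb complex, fell from 626 ± 39.8 (SD, n = 7) in untrained to 560.1 ± 30.1 (n = 9) in trained libraries, a log2 difference of -0.15 (limma adjusted p = 0.0379). The Rybp call was lost without the filter on low values (limma adjusted p = 0.0645), and the difference was -0.0006 with the sex-linked score in the fit. Skp1a, which binds the F-box protein KDM2B of the complex, rose in DG, from 1641 and 1692 to between 2116 and 2131 (log2 difference 0.35, limma adjusted p = 0.00954), a call lost without trained animal 1 or 2 (limma adjusted p = 0.0543 and 0.0688). The other 7 of 9 tested genes passed in no training comparison.

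Of the 10 other partners and class II deacetylases, 2 rose over all subregions. Hdac5, a deacetylase that shuttles between nucleus and cytoplasm, was 702 ± 76.5 (SD, n = 7) in untrained and 883 ± 70.2 (n = 9) in trained libraries, a log2 difference of 0.34 (limma adjusted p = 0.000881). Ctbp1, a corepressor that binds BCL6, was 953 ± 125 in untrained and 1175 ± 58.5 in trained libraries, a log2 difference of 0.31 (limma adjusted p = 0.00377). A call of Ctbp1 in CA1 (0.28) was lost without trained animal 1 or 2 or untrained animal 1 or 2 (limma adjusted p from 0.144 to 0.202). Mta3, the NuRD subunit linked to BCL6 in germinal centres, was lower in CA1 than in DG when averaged over the training groups (log2 difference -0.31, limma adjusted p = 0.00947). That call was lost without trained animal 2 (limma adjusted p = 0.112). In untrained libraries Mta3 averaged 347 ± 28.4 in CA1 (SD, n = 3) and 514 ± 47.0 in DG (n = 2). In trained libraries it averaged 432 ± 32.6 in CA1 and 447 ± 29.2 in DG (n = 3 and 3), with overlapping ranges (395 to 457 and 422 to 479).

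Among BCL6 relatives with a BTB domain, 1 of 8 tested genes passed in CA1. Zbtb20, a factor of hippocampal pyramidal neurons, rose there from 1222 to 1411 in untrained libraries to 1515 to 1627 in trained ones, a log2 difference of 0.30 (limma adjusted p = 0.00933). The call was lost without trained animal 2 or untrained animal 1 (limma adjusted p = 0.0689 and 0.0848). None of the 9 passed over all subregions.

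Of the 12 Notch pathway genes, Notch2, a receptor, fell over all subregions from 806 ± 53.6 (SD, n = 7) to 706 ± 38.8 (n = 9), a log2 difference of -0.18 (limma adjusted p = 0.015). Maml2, a coactivator of the Notch complex, rose in CA1 by 0.48 (limma adjusted p = 0.000486), from 585 to 657 in untrained to 801 to 885 in trained libraries. The Notch targets Hes1, Hes5, Hey1 and Hey2 passed in no training comparison. The list had a median log2 difference of -0.02 over all subregions and -0.15 in DG, beside -0.0092 and 0.00076 over all genes.

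Of the 18 tested textbook BCL6 targets, 3 rose and 1 fell over all subregions, with a median log2 difference of 0.05. Socs2, a feedback inhibitor of cytokine signalling, was 57.4 ± 20.2 (SD, n = 7) in untrained and 89.0 ± 20.4 (n = 9) in trained libraries, a log2 difference of 0.60 (limma adjusted p = 0.00663). Its level was also lower in CA1 than in DG (-0.67, limma adjusted p = 0.017), a call lost without trained animal 2 or 3 or untrained animal 3 (limma adjusted p = 0.129, 0.0606 and 0.095). Ccnd2, cyclin D2, was 1083 ± 113 and 1256 ± 117 (0.20, limma adjusted p = 0.0117), and its CA1 difference of 0.26 (limma adjusted p = 0.0313) was lost without trained animal 1 or 2 or untrained animal 1 or 2 (limma adjusted p from 0.076 to 0.163). Bcl2l1, which encodes the anti-apoptotic BCL-XL, was 679 ± 81.9 and 780.2 ± 28.4 (0.20, limma adjusted p = 0.0202). Id2, an inhibitor of helix-loop-helix factors, fell from 376 ± 23.7 to 318 ± 36.9 (-0.24, limma adjusted p = 0.0221). The other 14 tested targets passed in no training comparison.

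Of the 12 regulators of Bcl6, Mef2c, an activity-dependent neuronal factor, fell over all subregions from 2343 ± 237 (SD, n = 7) to 1891 ± 172 (n = 9), a log2 difference of -0.31 (limma adjusted p = 0.00546), and in DG by 0.38 on the log2 scale (limma adjusted p = 0.00999). The DG call was lost without trained animal 1 or 2 (limma adjusted p = 0.0584 and 0.084). The STAT and FOXO genes of the list passed in no training comparison.

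The genes whose pattern was most like that of Bcl6 over the 16 libraries were found among 10764 genes of mean value at least 50. These Pearson correlations carry no p, because libraries share animals and training groups. Dnajb5, a co-chaperone, had r = 0.921, the matrix protein gene Tnc 0.919, the SMAD corepressor Skil 0.914, the kinase Dapk1 0.894 and the LIM-only factor Lmo3 0.882. The lowest were Nrsn1 (-0.947), Adam11 (-0.931), Cdh24 (-0.916), Psd3 (-0.912) and Wscd1 (-0.908). Dnajb5, for example, averaged 1410.0 in untrained and 1201 in trained libraries, and Adam11 1090.0 and 1646. After each group mean was subtracted, the most similar genes were Myoc (0.953), Uprt (0.921) and the matrix proteoglycan Ncan (0.864). On that scale Bcl6 had r = 0.762 with Bcor, 0.275 with Ncor1 and 0.0346 with Bcorl1, and Bcor had 0.593 with Ncor1. Subtracting the mean makes the 2 libraries of untrained CA3, and those of untrained DG, mirror images. How many genes reach such correlations with Bcl6 was not counted. Bcor was most like Ncan (0.821), Tspan5 (0.813) and Mfsd4a (0.807) over the 16 libraries. Bcorl1 was most like Frmd5 (0.919), Phtf2 (0.905) and Nvl (0.884), and Ncor1 was most like Tmem131 (0.938) and the chromatin regulators Bptf (0.9) and Ash1l (0.898).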

How the data were processed

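Bulk RNA-seq was made from CA1, CA3 and DG of 3 trained and 3 untrained mice (16 libraries). The kit depleted ribosomal RNA, although the labels call the molecule polyA RNA. The submitters' notes name bcl2fastq 2.20, FastQC, Trim Galore, STAR, DESeq2 and GRCm38. The authors deposited 1 table per library, whose values (unit: signal) are normalized estimated counts. Whole reads could not be recovered (2.44% to 10.96% of values were whole multiples within 0.02), so no count test was run.

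From the deposited values, limma 3.58.1 (R 4.3.3) was fitted to log2(value + 2) with a mean-variance trend and robust estimation, checked on simulated data, with Benjamini-Hochberg adjustment over all genes tested. Genes were kept that reached a value of 10 in 3 CA1 libraries, or in 2 libraries in the other fits. The combined fit had subregion and training as terms, and subregion and interaction contrasts came from 1 fit of 6 groups. 4 rows with date-like duplicated names were dropped. Positions and lengths came from GENCODE M21, which held 24467 of 24968 genes, and promoter windows from RefSeq for all 4 members.

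Libraries with the same number and training label come from 1 animal by their titles. Their deviations from the group means had correlations of -0.108 to 0.0921 across genes (14 pairs). The members and lists were chosen with earlier results of these data known. Named genes are the 4 members, list genes passing in a comparison (or, where none did, the 2 of highest mean), and genes of most similar pattern. Replicates are separate animals, and p-values over all subregions treat libraries of 1 animal as independent. Alternatives were 2 rescalings, pseudocounts of 0.5 and 10, 2 filters, no robust estimation, 1 fit of all libraries, a replicate block, 2 covariates and each animal left out.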

Additional observations from a re-analysis of the deposited data

Results flagged for a closer look

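Of the list genes, Maml2 and Mta3 had training differences that differed between CA1 and DG by the interaction test. For Maml2 the difference in CA1 minus that in DG was 0.72 on the log2 scale (95% interval 0.39 to 1.05, limma adjusted p = 0.021), and the trained libraries all lay above the untrained ones in CA1 and below them in DG. For Mta3 it was 0.515 (0.25 to 0.79, limma adjusted p = 0.0342), with the same 2 directions. In both subregions the number of genes at 0 separates the same libraries as training. With that number as a covariate neither passed (Maml2 0.23, limma adjusted p = 0.919, and Mta3 0.30, limma adjusted p = 0.884), and Mta3 did not pass with the animal as a block (0.46, limma adjusted p = 0.0667). Maml2 did not pass without trained animal 2, untrained animal 1 or untrained animal 3 (0.66 to 0.77, limma adjusted p from 0.0792 to 0.12). Mta3 did not pass without any 1 of the 6 animals (0.45 to 0.63, limma adjusted p from 0.0668 to 0.133).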

How the results depend on the processing

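Adjusted for the sex-linked score, the training difference of Bcl6 was -0.68 (standard error 0.137) over all subregions, -0.99 (0.423) in CA1 and -0.75 (0.164) in CA3. That of Bcor was -1.14 (0.661) in CA1 and -0.32 (0.326) in DG. That of Bcorl1 was 0.32 (0.503) in CA1, -0.24 (0.162) in CA3 and -0.095 (0.313) in DG. That of Ncor1 was -0.21 (0.0908) over all subregions, -0.42 (0.171) in DG, -0.21 (0.113) in CA3 and -0.11 (0.286) in CA1. The CA1 difference of Ccnd2 turned to -0.023 (0.413) with that score. With the number of genes at 0 as a covariate, Bcl6 was -0.38 (0.21) in CA1, -0.68 (0.106) in CA3 and -0.19 (0.183) in DG, Bcorl1 -0.18 (0.253) in CA1 and Ncor1 0.048 (0.139) in CA1. The interaction CA1 minus DG turned to -0.076 (0.284) for Bcor and -0.13 (0.195) for Bcorl1 with that covariate. For Bcorl1, CA1 minus CA3 turned to -0.027 (0.131) and CA3 minus DG to -0.10 (0.168). In CA1 and DG the number of genes at 0 separates the same libraries as training. The cause was not tested.

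With each animal left out in turn, Bcl6 in DG ranged from -0.37 to -0.22 and Bcorl1 in DG from -0.28 to -0.13. The training difference of Bcor ranged from -0.23 to -0.0025 in CA1 (highest without trained animal 1) and from -0.21 to 0.018 in CA3 (above 0 without trained animal 2), and that of Ncor1 from -0.021 to 0.019 in CA1 (above 0 without trained animal 1 or untrained animal 2) and from -0.15 to -0.055 in CA3 (nearest 0 without untrained animal 1). The subregion difference of Bcl6 ranged from 0.035 to 0.13 (CA1 minus DG), 0.081 to 0.20 (CA1 minus CA3) and -0.099 to -0.017 (CA3 minus DG). That of Bcorl1 ranged from 0.073 to 0.14, -0.098 to -0.017 and 0.12 to 0.20 in the same order. That of Bcor ranged from -0.028 to 0.094 (CA1 minus DG), -0.043 to 0.18 (CA1 minus CA3) and -0.081 to 0.018 (CA3 minus DG), and that of Ncor1 from -0.011 to 0.042, -0.0095 to 0.058 and -0.063 to 0.016. The interaction ranged from -0.39 to -0.19 (CA1 minus DG), 0.0057 to 0.24 (CA1 minus CA3) and -0.47 to -0.30 (CA3 minus DG) for Bcl6. In the same order it ranged from -0.031 to 0.25, -0.23 to 0.21 and 0.042 to 0.24 for Bcor, from 0.093 to 0.22, -0.047 to 0.12 and 0.041 to 0.19 for Bcorl1, and from 0.16 to 0.26, 0.034 to 0.17 and 0.059 to 0.22 for Ncor1. No subregion value of a member passed under any alternative (lowest limma adjusted p = 0.221).

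Counts of list genes also changed. With the sex-linked score, 0 were higher and 0 lower over all subregions and within each subregion. With the number of genes at 0, 0 were higher in CA1, 3 higher and 5 lower in CA3, and 0 higher and 0 lower in DG. With the replicate block, 5 were higher and 3 lower over all subregions (Rybp did not pass, limma adjusted p = 0.0515), 2 were higher in CA1, 7 higher and 2 lower in CA3, and 2 higher in DG, and Bcl6 over all subregions was -0.52. For training, that block joins trained and untrained animals that share only a number (correlations of their deviations from -0.194 to 0.119, median -0.0272). For subregions and interactions the block was the animal. Without robust estimation 2 were higher in CA1, with upper-quartile rescaling 1 was lower in CA1, and in 1 fit of all libraries 1 was lower in CA1, 2 higher and 1 lower in CA3, and 0 lower in DG. Leaving out an animal gave 3 to 8 higher and 0 to 5 lower over all subregions, 1 to 12 higher and 0 to 1 lower in CA1, 0 to 2 higher and 0 to 3 lower in CA3, and 0 to 6 higher and 0 to 7 lower in DG. Of the 9 list genes passing over all subregions, 6 still passed without trained animal 1, 4 without trained animal 2, 7 without trained animal 3, 4 without untrained animal 1, 6 without untrained animal 2, 9 without untrained animal 3 and 6 without untrained CA3 replicate 1. Without trained animal 2, Mta3, Socs2 and Ccnd2 did not pass between subregions (limma adjusted p from 0.112 to 0.134), and Ccnd2 did not pass there without trained animal 3 or untrained animal 2 either (limma adjusted p = 0.22 and 0.333).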
